A study of Rattus norvegicus with 23 samples.

Results

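The genes described here are mostly ones that make and use glutathione and thioredoxin, or otherwise detoxify superoxide, peroxides and reactive chemicals. They were chosen by name: every gene with a probe set whose only gene symbol in the platform annotation starts with Gst, Mgst, Gpx, Prdx, Txn or Glrx, together with Sod1, Sod2, Sod3, Nqo1, Hmox1, Gclc, Gclm, Gsr, Gss and Srxn1. Gstm1 and Txnip were left out by the same rule. The choice gave 64 genes of the 14218 genes with such a probe set, read on 75 of the 31099 probe sets on the array. Where a gene had several probe sets, the brightest over all 23 arrays was used. By role the 64 antioxidant genes fell into 23 glutathione transferases, 7 glutathione peroxidases, 6 peroxiredoxins with sulfiredoxin, 5 thioredoxins and thioredoxin reductases, 10 thioredoxin-like proteins, 4 glutaredoxins, 3 superoxide dismutases, 4 genes of glutathione synthesis and recycling, and 2 inducible enzymes. Prdx1 is not among them because its probe set carries several symbols. The name rule does not check function, so some of the genes, thioredoxin-like proteins included, may have other roles. The term antioxidant genes is used as a short label for all 64.

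Glutathione is a cysteine-containing tripeptide that glutathione peroxidases spend to reduce peroxides and glutathione transferases attach to electrophiles, while thioredoxin and its reductase keep peroxiredoxins and other protein thiols reduced. Superoxide dismutases supply the hydrogen peroxide that both systems remove. In brain astrocytes are a main supplier of glutathione and its precursors, and many of these genes carry antioxidant response elements bound by the transcription factor Nrf2, which Keap1 holds at low levels in unstressed cells. The area postrema, at the floor of the fourth ventricle, has fenestrated capillaries, so that its cells meet blood-borne chemicals directly.

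Messenger RNA of the rat area postrema was measured on Affymetrix whole-genome rat arrays, each hybridised with RNA pooled from 5 male rats. The strain comparison had 5 arrays of SHR, the spontaneously hypertensive rat, and 5 of WKY, the Wistar Kyoto strain that commonly serves as its normotensive counterpart, all 10 to 13 weeks old and with no treatment named. Sprague Dawley rats of 10 to 12 weeks were controls (4 arrays), had been fasted for 48 h (5 arrays) or had been dehydrated for 72 h (4 arrays). The series' title names hypertension, hunger and thirst as its subjects. The labels name no engineered allele in any group. The strain arrays and the Sprague Dawley arrays carry label texts that name different label chemistry, so a level that differs between SHR or WKY and Sprague Dawley cannot be told apart from a difference between these sets of arrays, and all comparisons stay within a set.

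Signals are on the authors' scale, on which the trimmed mean of every array is 100, and array medians ran from 39.81 to 44.48. Arrays carry the numbers of their labels, except that the unnumbered first array of each strain is called array 1. The pools are the replicates, so p-values measure the spread between pools and not between animals. In bulk tissue fewer cells of a type and less RNA per cell cannot be told apart. Of 10 genes listed as typical of the area postrema, 7 had a matched probe set. Calcr, the calcitonin receptor, averaged 110.6 to 140.1 over the groups and Dbh, dopamine beta-hydroxylase, 216.9 to 326.0. Glp1r (31.2 to 36.4) and Htr3a (19.1 to 25.3) lay below the array medians. Transthyretin (Ttr), the leading choroid plexus marker, averaged 2084.3 in Sprague Dawley controls, 1547.3 after fasting and 3817.1 after dehydration, against 78.8 in SHR and 102.6 in WKY. Single arrays weighed heavily on the Sprague Dawley means. In the same order their medians were 724.1, 439.9 and 3460.6, and the highest arrays were at 6558.6, 6342.6 and 7953.2. Marker values are given beside the results they move with.

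Promoter sequence is shown for 5 antioxidant genes, because the antioxidant response element is a known control sequence of many, though not all, genes of this kind. The 4 genes Gstm5, Gpx2, Txndc5 and Nqo1 passed the test in a comparison. Gstp1 passed in none, but had the widest difference between dehydration and fasting. The 5 were picked for display, so they do not show how often called genes hold a match. Gsta1 and Gstt3, which also passed, are not shown, and their windows of this length held no match to the element's core. Each window is the 250 bases before the RefSeq start of the gene in GRCr8, printed 5′ to 3′ on the gene's strand, at chr2:198219519-198219768 (plus strand) for Gstm5, chr6:101230034-101230283 (minus) for Gpx2, chr17:26495217-26495466 (plus) for Txndc5, chr19:52220268-52220517 (minus) for Nqo1 and chr1:210769706-210769955 (minus) for Gstp1. Capitals mark matches to the element's core TGACNNNGC on either strand, where N is any base.
Gstm5: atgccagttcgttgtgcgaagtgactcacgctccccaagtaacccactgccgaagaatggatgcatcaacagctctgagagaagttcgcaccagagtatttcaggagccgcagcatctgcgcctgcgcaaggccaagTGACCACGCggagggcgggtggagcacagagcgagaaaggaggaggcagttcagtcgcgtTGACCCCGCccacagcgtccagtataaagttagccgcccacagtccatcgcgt
Gpx2: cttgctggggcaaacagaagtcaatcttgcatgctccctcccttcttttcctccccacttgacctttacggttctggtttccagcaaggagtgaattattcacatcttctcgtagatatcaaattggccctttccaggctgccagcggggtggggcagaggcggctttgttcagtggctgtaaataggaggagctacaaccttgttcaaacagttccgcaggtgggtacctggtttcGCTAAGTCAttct
Txndc5: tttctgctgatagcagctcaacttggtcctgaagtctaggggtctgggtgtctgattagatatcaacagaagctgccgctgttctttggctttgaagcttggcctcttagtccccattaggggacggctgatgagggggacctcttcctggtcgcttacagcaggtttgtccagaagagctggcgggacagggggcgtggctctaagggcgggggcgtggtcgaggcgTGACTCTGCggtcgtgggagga
Nqo1: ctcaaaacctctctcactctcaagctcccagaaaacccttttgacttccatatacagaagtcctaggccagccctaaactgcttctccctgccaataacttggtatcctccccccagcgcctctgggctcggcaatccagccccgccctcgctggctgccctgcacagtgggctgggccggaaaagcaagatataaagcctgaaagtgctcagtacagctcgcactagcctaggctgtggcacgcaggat
Gstp1: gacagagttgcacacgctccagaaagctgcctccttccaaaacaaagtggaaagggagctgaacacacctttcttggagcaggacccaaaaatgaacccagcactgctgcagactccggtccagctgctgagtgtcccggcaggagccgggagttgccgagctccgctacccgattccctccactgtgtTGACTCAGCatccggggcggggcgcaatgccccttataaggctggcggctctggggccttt

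Gstm5 held 2 matches, at 113 and 53 bases before its start. Gpx2 and Gstp1 held 1 each, in Gpx2 on the opposite strand, and the Gstp1 match also contains the AP-1 core TGACTCA. Txndc5 held 1 match 22 bases before its start, and in the Nqo1 window these letters were not found. Sequence further before the start was not searched, so a missing match does not mean that Nqo1 or another gene lacks the element. Windows that also took in the 50 bases after the start were matched for 55 of the 64 genes. In 17 of these 55 genes (30.9%) the core was found in at least 1 window, compared with 13.1% of all 27457 genes in the promoter table. Counted by window, it was in 27.0% of 63 windows of antioxidant genes and in 12.1% of all 33469 windows. The 17 genes were Gclm, Gpx2, Gsta1, Gsta3, Gstcd, Gstm5, Gstm7, Gstp1, Gstz1, Prdx4, Prdx5, Sod2, Txndc11, Txndc17, Txndc5, Txnl4b and Txnrd1. A match is a run of letters and not a measured binding site.

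Most of the antioxidant genes were read well above the dim end of the array. In each of the 4 comparisons 57 of the 64 passed the filter on low signal, which kept the brighter 18625 probe sets. The 7 that did not were Gsr, which encodes glutathione reductase (13.7 to 53.0 over the 23 arrays), Gsta3, Gsta3l1, Gstm3, Gstm6l, Gstp3 and Gpx6. Among the last 6 the highest signal on any array was 28.5, for Gstm6l. Each role group had a bright leading gene. Sod1, the cytosolic copper-zinc dismutase, averaged between 2876.1 and 3239.1 in the 5 groups. Prdx2, a cytosolic peroxiredoxin, averaged between 2411.3 and 2706.6, and Gpx1, the most widespread glutathione peroxidase, between 1627.4 and 1863.2. Txnl1, a thioredoxin-like protein of the proteasome, ran from 866.5 to 1042.7. Gclm, the modifier subunit of the enzyme that limits glutathione synthesis, ran from 158.0 to 179.1. Replicate pools differed little: the median coefficient of variation of the 57 genes was 8.44% in SHR, 8.49% in WKY, 9.01% in controls, 9.73% after fasting and 8.48% after dehydration, against 10.9% to 12.4% over all probe sets tested. The 57 genes were not matched to all probe sets for brightness, so their lower figures cannot be read as a trait of antioxidant genes. The least steady of the 57 was Srxn1, sulfiredoxin, which repairs overoxidised peroxiredoxins, with 57.0% among the dehydrated pools. Probe sets of transferases in the same class can bind transcripts of their relatives, so the gene identity of these signals is less certain than for the other roles.

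**Figure D1:**
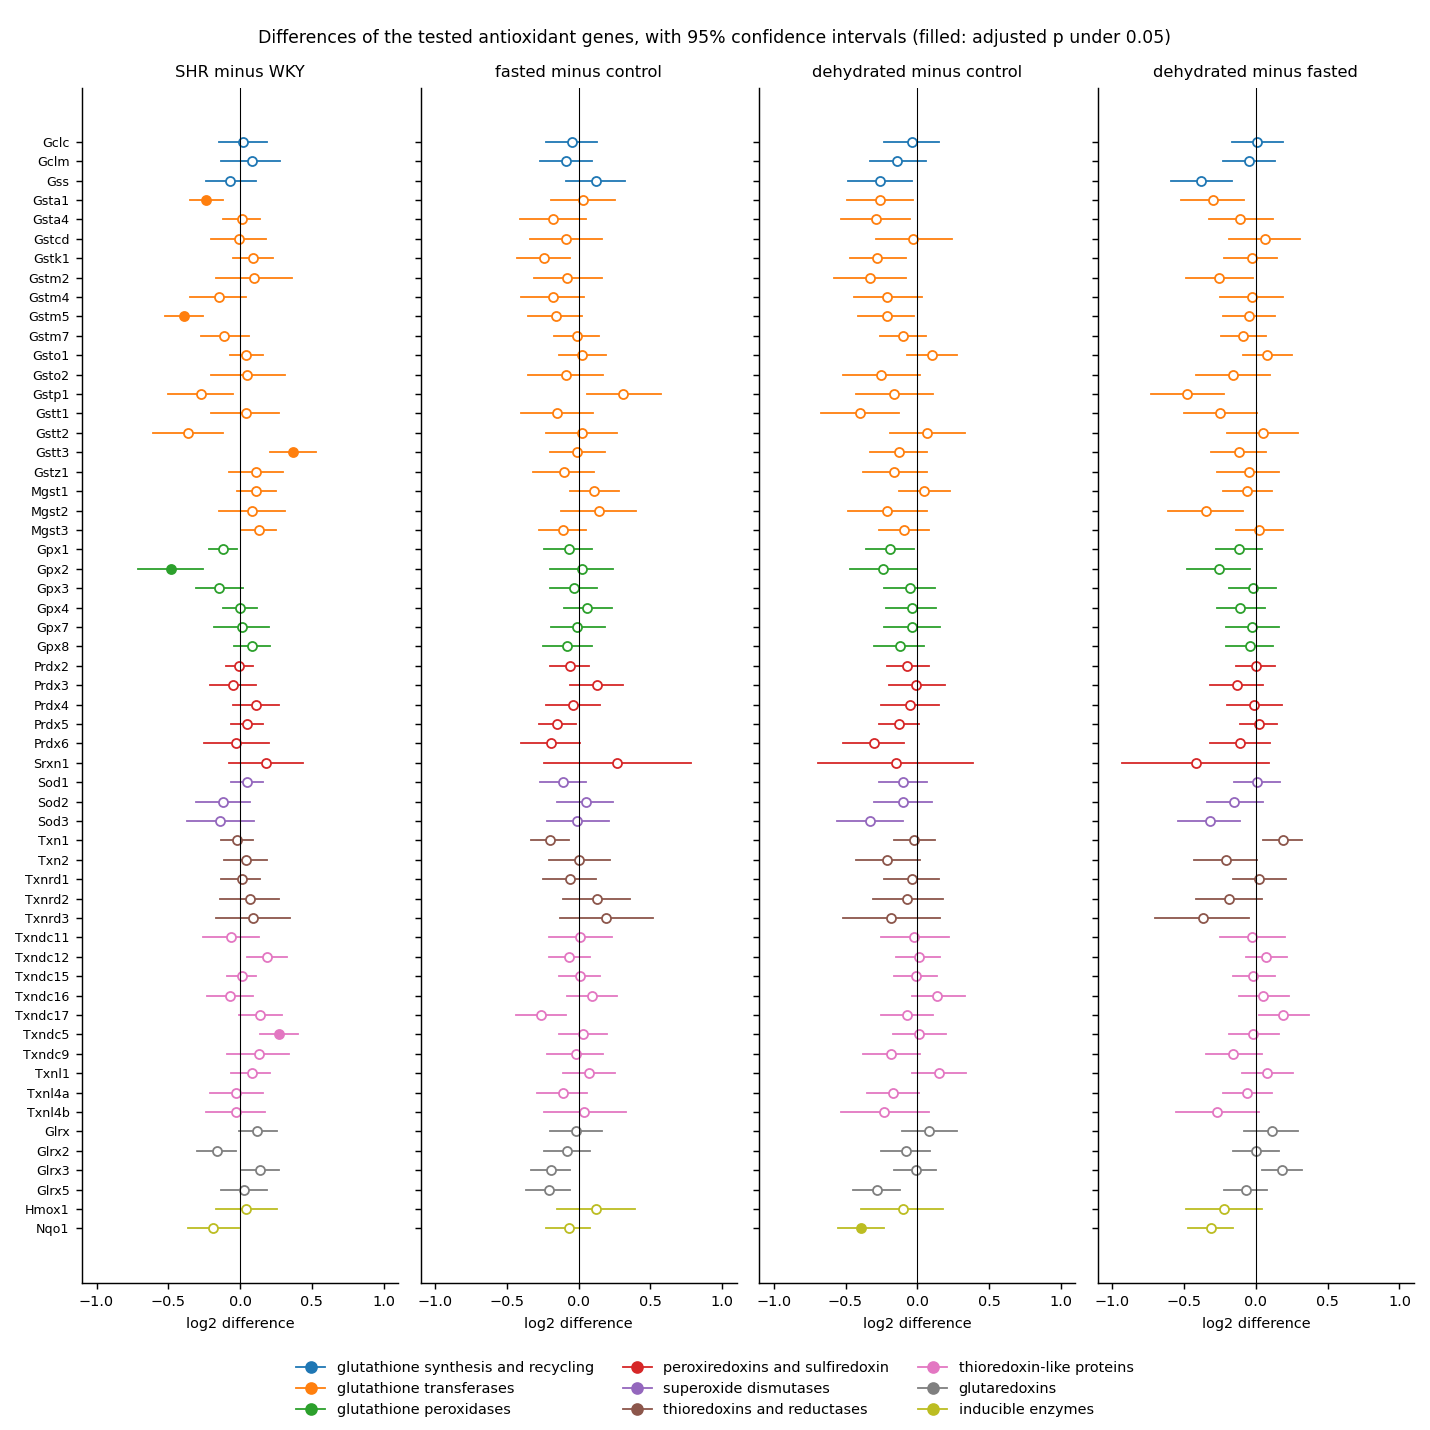
Log2 differences of the 57 tested antioxidant genes (rows, coloured by role) in the 4 comparisons (panels), with 95% confidence intervals as horizontal lines. Filled circles have an adjusted p under 0.05: 5 in SHR minus WKY, 1 in dehydrated minus control and 0 in the comparisons of fasted with control and of dehydrated with fasted; in dehydrated minus control 49 of 57 points lie left of 0.

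Between the hypertensive strain and WKY, 5 of the 57 antioxidant genes differed. Gstm5, Gsta1 and Gpx2 were lower in SHR, and Gstt3 and Txndc5 were higher, by 1.18- to 1.4-fold. A difference was called at a limma p under 0.05 after Benjamini-Hochberg adjustment over all 18625 probe sets tested. Of those, 5.06% were called (2.17% higher in SHR and 2.88% lower), so the 5 of 57 stand near the background, with 2 higher and 3 lower. At an unadjusted p under 0.05 there were 13 antioxidant genes, against 17.2% of all probe sets. SHR and WKY signals were fully separated for 4 of 57 genes, against 6.33% of all. The median difference of the 57 genes was 0.02 and that of all probe sets 0.01 on the log2 scale, and 34 of 57 were positive.

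The transferases held 3 of the 5 called genes. Gstm5, a mu-class transferase, had signals of 2362.7, 2648.7, 2194.2, 2379.8 and 2237.1 in the SHR arrays and 3349.6, 3369.1, 2876.1, 3026.8 and 2925.4 in the WKY arrays. Every WKY array lay above every SHR array. The means were 2364.5 ± 177.7 and 3109.4 ± 234.6 (SD, n = 5 each), a difference of -0.39 on the log2 scale (SE 0.061, limma adjusted p = 0.00059), or 1.31-fold lower in SHR. Gsta1, an alpha-class transferase, gave 2791.0, 2908.6, 2784.4, 3179.8 and 2882.4 in SHR and 3763.8, 3432.4, 3519.3, 3317.0 and 3121.7 in WKY. SHR array 4 lay above WKY array 5, so the groups overlapped by that pair. Its difference was -0.24 (SE 0.056, limma adjusted p = 0.0167). Gstt3, a theta-class transferase, went the other way, with 295.0, 268.4, 264.6, 217.8 and 268.6 in SHR and 200.9, 205.0, 182.2, 204.9 and 201.1 in WKY. All SHR arrays were above all WKY arrays, and the difference of 0.37 (SE 0.075, limma adjusted p = 0.00539) made it 1.29-fold higher.

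Gstt3 lies close to Gstt1 and Gstt2 in the GRCr8 order of protein-coding genes. Genes were grouped when consecutive ones lay within 3 places of each other, so other genes may lie between them. Gstt2 did not pass, at -0.36 (adjusted p = 0.082), with means of 75.6 ± 12.2 in SHR and 102.3 ± 18.9 in WKY, and Gstt1 gave 0.04 (adjusted p = 0.914). The 3 theta-class neighbours thus had differences of both signs. By the same rule Gstm5 falls in a group of 6 mu-class genes with Gstm6l, Gstm7, Gstm3, Gstm2 and Gstm4. Of the tested ones, Gstm7 gave -0.11, Gstm2 0.10 and Gstm4 -0.15, and none of the 3 passed (adjusted p = 0.548, 0.758 and 0.434). Over the 18 tested transferases 1 rose and 2 fell, and the median difference was 0.04. Gstp1, the pi-class enzyme, was at 2026.3 ± 325.9 in SHR and 2447.4 ± 318.7 in WKY, a difference of -0.27 that did not pass (adjusted p = 0.189). Gstp1 and Gstt2 passed only in the fit without SHR array 2.

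Among the peroxidases Gpx2, a selenoprotein best known from gut epithelium, was the 1 of 6 that passed. Its signals were 81.1, 82.5, 75.3, 59.9 and 57.5 in SHR and 96.6, 129.1, 103.0, 109.4 and 89.7 in WKY, with no overlap. The means of 71.3 ± 11.8 and 105.5 ± 15.1 (SD, n = 5 each) differed by -0.48 (SE 0.107, limma adjusted p = 0.0109), 1.4-fold lower in SHR. It had the widest difference among the called antioxidant genes. Gpx1 was at -0.12 (adjusted p = 0.183) and Gpx4, which removes lipid peroxides from membranes, at 0.00 with a 95% interval of -0.12 to 0.12.

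Of the 10 thioredoxin-like proteins, Txndc5, a disulfide isomerase of the endoplasmic reticulum, rose in SHR. The SHR arrays gave 452.7, 424.1, 457.8, 463.1 and 443.9 and the WKY arrays 362.9, 326.1, 394.3, 364.5 and 397.3, again without overlap. The difference was 0.27 (SE 0.062, limma adjusted p = 0.013), 1.21-fold higher in SHR. Its relative Txndc12, also of the endoplasmic reticulum, gave 0.19 without passing (adjusted p = 0.12). The other 8 thioredoxin-like proteins ranged from -0.07 to 0.14.

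In the remaining roles 0 genes passed in the limma fit of the strains. At an unadjusted p under 0.05 there were 2 of 4 glutaredoxins, 1 of 2 inducible enzymes and 0 of the 6 peroxiredoxins with sulfiredoxin, 3 dismutases, 5 thioredoxins and reductases and 3 genes of glutathione synthesis. The thioredoxin core was the tightest: Txn1 gave -0.02 and the other 4 genes 0.01 to 0.09. Nqo1, a quinone reductase that is a standard readout of Nrf2 activity, was at 402.2 ± 45.0 in SHR and 460.0 ± 54.0 in WKY, a difference of -0.19 (adjusted p = 0.269). Hmox1, heme oxygenase, differed by 0.04 (adjusted p = 0.891).

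**Figure D2:**
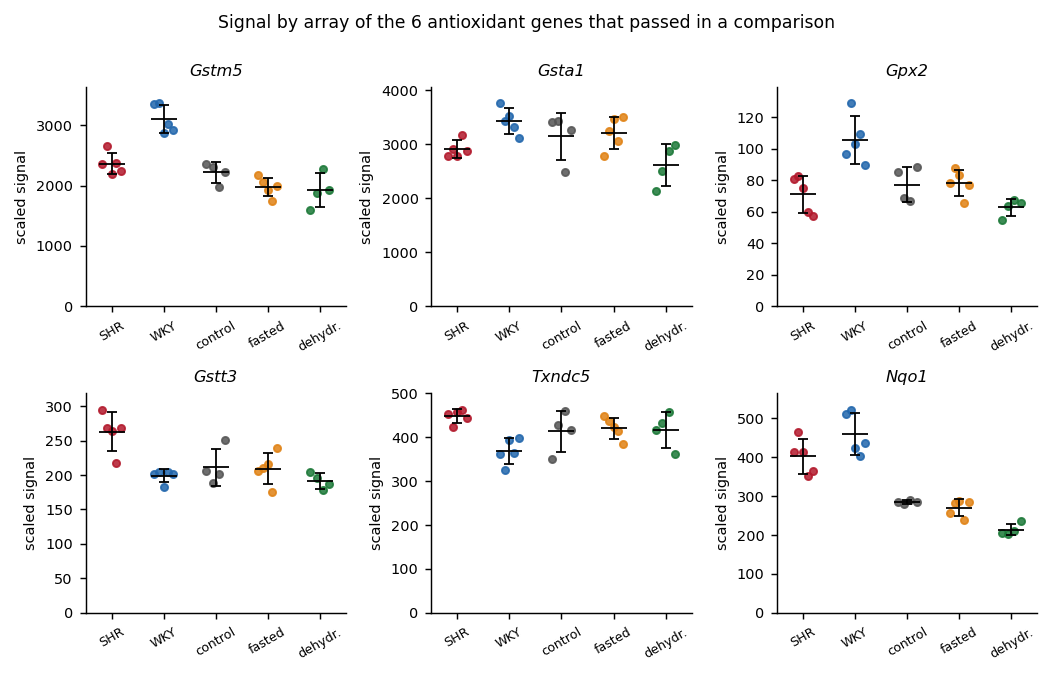
Scaled signal on each array (points) for the 6 antioxidant genes that passed in a comparison, in the 5 groups, with the group mean and SD as black marks. Gstm5 and Gpx2 lie lower in SHR than in WKY without overlap, Gstt3 and Txndc5 higher without overlap, Gsta1 lower with 1 overlapping pair, and Nqo1 is lower in the 4 dehydrated arrays than in the 4 control arrays.

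Markers of other cells moved with strain as well. All 9 tested microglia markers had negative SHR minus WKY differences (median -0.28), of which Aif1, C1qa and C1qc passed, and all 8 fibroblast and meninges markers were negative (median -0.24), of which Col1a2, Fmod and Igf2 passed. The 3 tested choroid plexus markers were negative too (median -0.15), none passing. The mean log2 signal of the 10 microglia markers was 6.97 to 7.41 in SHR arrays and 7.38 to 7.51 in WKY arrays, and that of the 8 fibroblast markers was 7.80 to 8.12 and 8.19 to 8.47. With the microglia mean as a covariate only Gstt3 kept its call, and with the fibroblast mean 0 of 57 did, while the calls over all probe sets went from 942 to 237 and 157. All 5 differences kept their sign in these fits: with the microglia and the fibroblast covariate they were -0.38 and -0.28 for Gstm5, 0.59 and 0.37 for Gstt3, -0.36 and -0.51 for Gpx2, 0.23 and 0.30 for Txndc5, and -0.30 and -0.13 for Gsta1. The Gapdh 3′ over 5′ ratio, a measure of RNA integrity, had a median log2 value of 0.214 in SHR and 0.105 in WKY, and with it as a covariate Txndc5 missed the threshold (adjusted p = 0.0503). Since these marker means hardly overlap between the strains, marker level and strain cannot be told apart in such fits. The Gsta1 call also ended without SHR array 1 (adjusted p = 0.0507) or SHR array 3 (adjusted p = 0.0561).

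**Figure D3:**
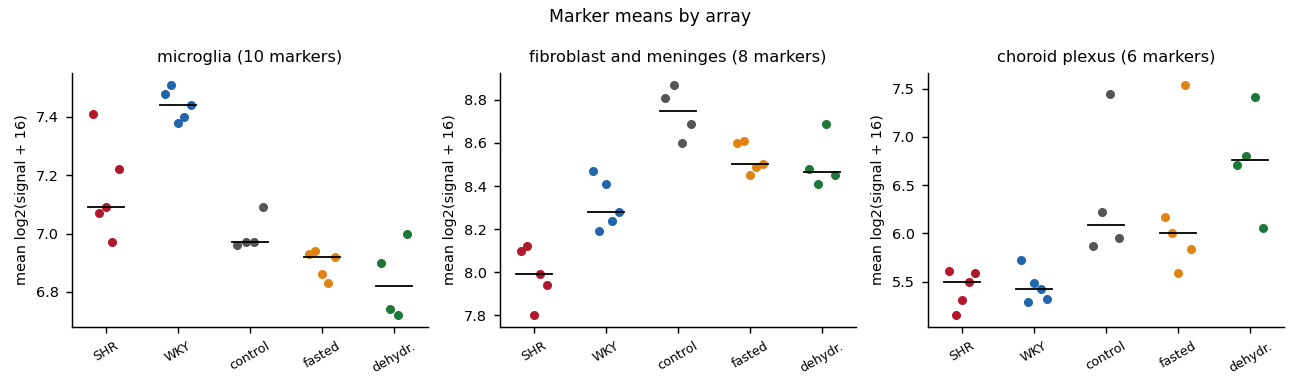
Mean log2(signal + 16) of the microglia, fibroblast and meninges, and choroid plexus markers on each array (points; bars are group medians), by group. Fibroblast means run from 7.80 to 8.12 in SHR and from 8.19 to 8.47 in WKY without overlap, and choroid plexus means exceed 7 on 1 array each of the control, fasted and dehydrated groups.

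After 48 h without food 0 of the 57 antioxidant genes passed in the limma fit, and 0.0215% of all probe sets did. At an unadjusted p under 0.05 there were 7 genes, against 7.19% of all. The groups' arrays did not overlap for 3 genes, all lower after fasting, against 2.32% of all. The median difference was -0.03, with 35 of 57 negative, and that of all probe sets 0.00.

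Txn1, cytosolic thioredoxin, gave 1672.8, 1752.2, 1613.2 and 1559.0 in controls and 1537.5, 1436.8, 1384.5, 1324.5 and 1471.8 in fasted pools. Txn1 had the smallest p of the 57, and every fasted array lay below every control array. The difference was -0.20 with a 95% interval of -0.33 to -0.07, but the limma adjusted p was 0.5. Txndc17, a thioredoxin-related protein of the cytosol, gave 231.2, 220.0, 197.7 and 221.3 in controls and 208.4, 158.0, 180.9, 164.7 and 184.2 in fasted pools. Fasted array 1 was above control array 3, and the difference was -0.26 (adjusted p = 0.509). Glrx3, a glutaredoxin that handles iron-sulfur clusters, gave 733.8, 731.9, 817.0 and 744.0 in controls and 717.2, 666.1, 614.9, 681.1 and 621.0 after fasting. These groups did not overlap, and the difference was -0.19 (adjusted p = 0.513).

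All 4 glutaredoxins had negative differences after fasting (-0.21 to -0.02), Glrx5, the mitochondrial member, with -0.21 (adjusted p = 0.515). Of the 18 transferases 12 were negative, with a median of -0.08. Gstp1 stood at the other end, at 1699.6 ± 345.9 in controls (n = 4) and 2099.8 ± 263.8 after fasting (n = 5), a difference of 0.31 (adjusted p = 0.598). The peroxidases ranged only from -0.08 to 0.06, and Nqo1 gave -0.07 (95% interval -0.23 to 0.08). Glutathione synthesis was split, with Gclc at -0.05, Gclm at -0.09 and Gss at 0.12. Beside these values, 6 of 8 fibroblast and meninges markers were negative after fasting (median -0.21), as were all 3 tested markers each of ependyma (median -0.21) and choroid plexus (median -0.11). None of them passed, and their part was not tested.

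**Figure D4:**
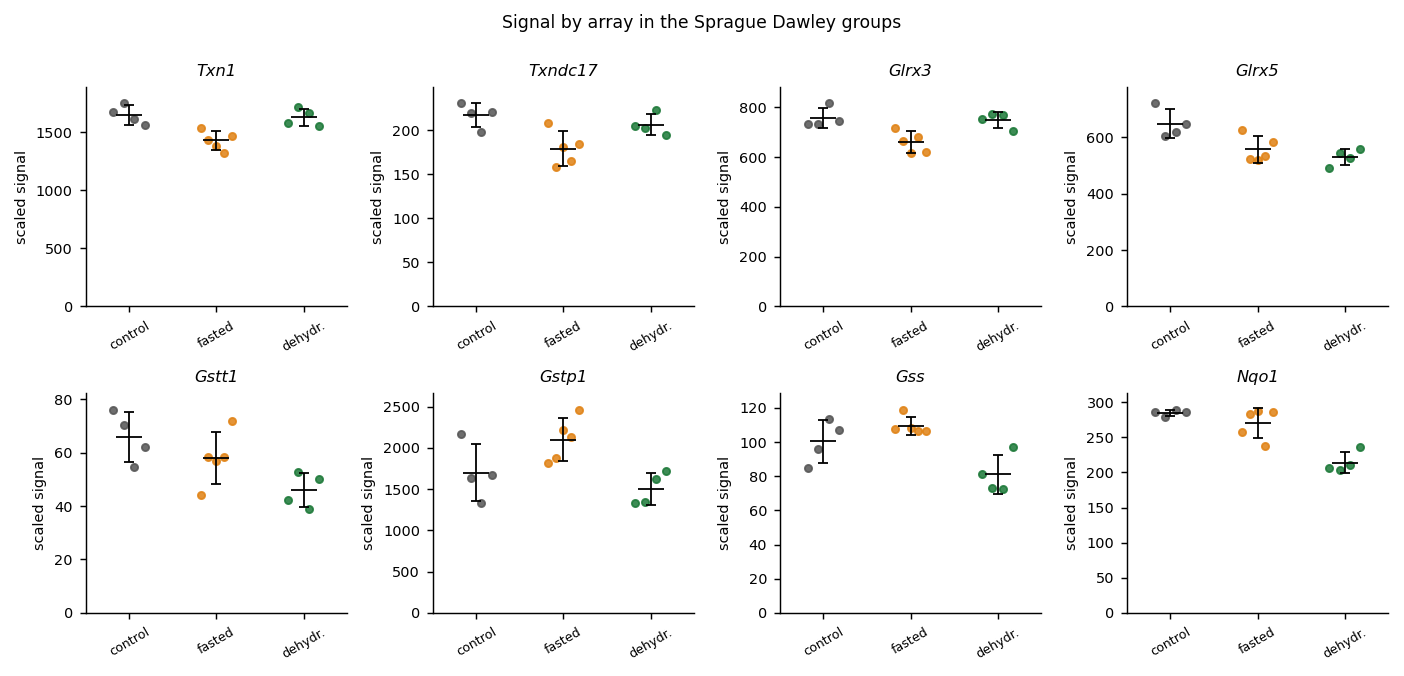
Scaled signal on each Sprague Dawley array (points), with group mean and SD, for the 8 antioxidant genes with the smallest p in the 3 comparisons of these groups. Txn1 and Glrx3 are lowest after fasting, Nqo1 is lower after dehydration (203.9 to 235.6) than in controls (279.0 to 289.6), and Gss and Gstp1 are lower after dehydration than after fasting without overlap.

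After 72 h of dehydration most of the antioxidant genes had slightly lower signals than in controls, and 1 passed. Nqo1 fell, to 214.1 ± 14.6 from 285.0 ± 4.38 (SD, n = 4 each), in the limma fit in which 0.166% of all probe sets were called. The difference was negative for 49 of 57 genes, compared with 52.4% of all probe sets, and its median was -0.10 against -0.01 over all. An unadjusted p under 0.05 was found for 13 genes, against 11.7% of all probe sets, and the arrays did not overlap for 8 genes (7 lower, 1 higher), against 6.68% of all. The comparison uses the same 4 control arrays as the fasting comparison, so the pair is not independent.

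The 4 control arrays agreed closely on Nqo1, at 285.7, 279.0, 289.6 and 285.6. The dehydrated arrays gave 206.0, 203.9, 210.9 and 235.6, all below every control, and the fasted arrays 257.6, 282.8, 287.7, 238.4 and 285.5, also above every dehydrated array. Nqo1 was 1.31-fold lower after dehydration than in controls, a log2 difference of -0.39 (SE 0.079, 95% interval -0.55 to -0.23, limma adjusted p = 0.0454). The call was a narrow one. It ended in 15 of 22 alternative fits, among them those without any single control array (adjusted p = 0.0848 to 0.154) and without dehydrated array 1, 2 or 3 (adjusted p = 0.135, 0.159 and 0.112). The difference itself stayed between -0.43 and -0.33 in all 22.

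Among the transferases 15 of 18 differences were negative, with a median of -0.18. Gstt1, a theta-class enzyme, gave 76.2, 70.5, 54.8 and 62.2 in controls and 42.4, 52.9, 39.0 and 50.1 after dehydration. No dehydrated array reached the lowest control, and the difference was -0.40 (limma adjusted p = 0.223). Gstk1, the kappa-class enzyme of mitochondria and peroxisomes, also separated the groups, at -0.28 (adjusted p = 0.241). Gstm2 gave -0.33, Gsta4 -0.29, Gsta1 -0.26 and Gstm5 -0.21, none of which passed (adjusted p = 0.28 to 0.371). The 3 positive transferases were Gsto1 (0.10), Gstt2 (0.07) and Mgst1 (0.05).

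The glutaredoxin Glrx5, which serves iron-sulfur cluster assembly in mitochondria, came next after Nqo1 by p. Its control signals were 722.3, 605.1, 620.2 and 648.8 and its dehydrated signals 491.9, 543.0, 526.9 and 557.5. The groups did not overlap, at -0.28 (SE 0.078, limma adjusted p = 0.155). Sod3, the secreted dismutase, averaged 142.7 ± 11.3 in controls and 110.5 ± 13.3 after dehydration, again without overlap, at -0.33 (adjusted p = 0.233). Prdx6, a peroxiredoxin that takes its electrons from glutathione, averaged 347.0 ± 33.8 and 279.0 ± 39.8, at -0.30 (adjusted p = 0.258). Gpx1 gave -0.19 (adjusted p = 0.371). Differences of all 6 peroxidases, all 6 peroxiredoxins with sulfiredoxin, all 3 dismutases, all 5 thioredoxins and reductases and all 3 genes of glutathione synthesis were negative, without any passing.

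Thioredoxin-like proteins were the exception, with 6 of 10 negative and a median of -0.01. Txnl1 was at 866.5 ± 65.2 in controls and 962.4 ± 20.9 after dehydration, a difference of 0.15 (adjusted p = 0.525), and a second probe set for it gave -0.19 (adjusted p = 0.464). Txndc16 was the 1 gene whose dehydrated arrays all lay above the controls, at 0.14 (adjusted p = 0.536). Txn1, at 1649.3 ± 82.9 and 1628.7 ± 74.5, gave -0.02 with an interval of -0.16 to 0.12.

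**Figure D5:**
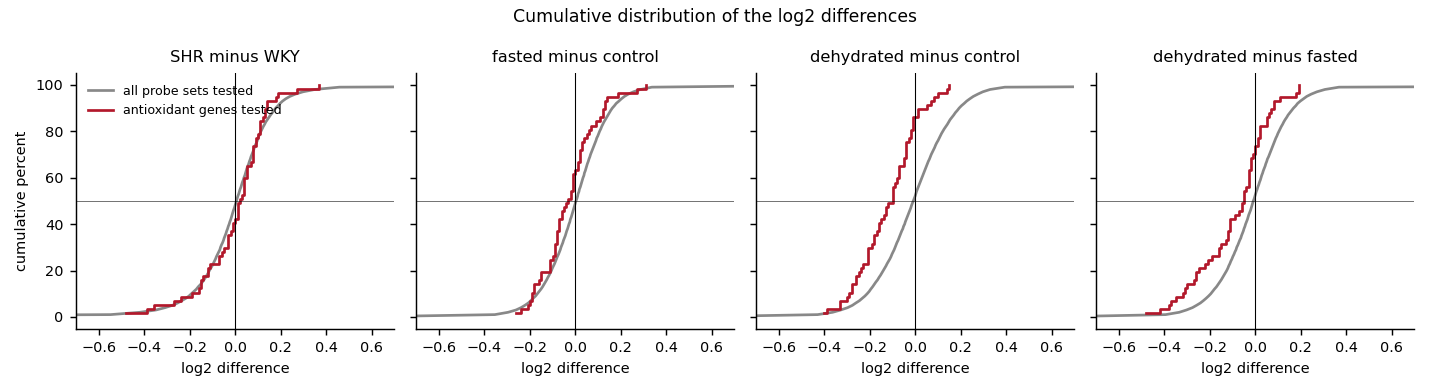
Cumulative percent of the log2 differences of the 57 tested antioxidant genes (red) and of all 18625 probe sets tested (grey) in the 4 comparisons. In dehydrated minus control the red curve lies left of the grey one, with medians of -0.10 and -0.01, and in SHR minus WKY the curves run together, with medians of 0.02 and 0.01.

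The negative count after dehydration ranged from 44 to 51 in the alternative fits that tested the same 57 genes, lowest without dehydrated array 4. Other markers moved in this comparison too, though no listed cell type marker passed. The 3 tested choroid plexus markers were positive (median 0.58), 7 of 8 fibroblast and meninges markers were negative (median -0.29), and 7 of 8 microglia markers were negative (median -0.10). All 3 tested ependyma markers were negative (median -0.16), and 5 of 7 neuron markers were positive (median 0.14). An unadjusted limma p under 0.05 was found for 5 of 8 fibroblast and meninges markers (62.5%, against 11.7% of all probe sets). It was found for 1 of 8 microglia and 2 of 7 neuron markers, and for 0 choroid plexus or ependyma markers. The fibroblast marker mean was 8.60 to 8.87 in control arrays and 8.41 to 8.69 in dehydrated arrays. The choroid plexus mean exceeded 7 on control array 3, fasted array 4 and dehydrated array 3. Without these 3 arrays 48 of 57 genes were negative, the median was -0.15, and Nqo1 no longer passed (adjusted p = 0.102). The removal did not level the choroid plexus means. Dehydrated arrays 1, 2 and 4 were at 6.71, 6.8 and 6.06, and control arrays 1, 2 and 4 at 5.87, 6.22 and 5.95. The 3′ over 5′ signal ratio of the Gapdh controls had a median log2 value of 0.37 after dehydration and 0.292 in controls. With the Gapdh ratio as a covariate 51 of 57 genes were negative (median -0.10), and with the choroid plexus mean 47 of 57 (median -0.09). The fibroblast and microglia means were not used as covariates in the Sprague Dawley fits. How far these markers or RNA integrity account for the lower signals was not tested.

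Set directly against fasting, dehydration gave 0 of 57 called antioxidant genes in the limma fit, with 0.0322% called over all probe sets. An unadjusted p under 0.05 was found for 12 genes, against 10.0% of all, and arrays did not overlap for 4, against 3.23% of all. The difference was negative for 42 of 57, with a median of -0.05 against -0.01 over all. This comparison shares its 4 dehydrated arrays with the comparison against controls. Nqo1 had the smallest p, at -0.31 (SE 0.075, limma adjusted p = 0.197), with the dehydrated arrays all below the fasted ones. Beside this, all 3 tested choroid plexus markers (median 0.69), all 3 pericyte markers (median 0.17) and 6 of 8 astrocyte markers (median 0.15) were positive, none passing, and their part was not tested.

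Gstp1 gave 1817.9, 1870.6, 2214.7, 2132.8 and 2463.2 in fasted pools and 1332.0, 1349.0, 1619.6 and 1718.9 in dehydrated pools. The groups did not overlap, and controls spanned both, from 1334.8 to 2168.4. Its difference of -0.48 was the widest of the 57, with an adjusted p of 0.209. Gss, glutathione synthetase, which adds the last amino acid of glutathione, gave 107.7, 119.0, 108.1, 106.7 and 106.4 after fasting and 81.5, 73.1, 72.4 and 97.2 after dehydration. These did not overlap either, at -0.38 (adjusted p = 0.216). The control arrays of Gss, at 84.6, 96.1, 113.7 and 107.0, overlapped with both groups. In the opposite direction Txn1 was at 0.19 (adjusted p = 0.341), all dehydrated arrays above all fasted arrays, and Glrx3 at 0.18 (adjusted p = 0.377).

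Further genes of the pathway were read from a list of 66 regulators, transporters and enzymes, of which 62 had a probe set. Of the 55 tested between the strains 1 rose and 1 fell, and 30 were positive. The gene that fell was Cbs, cystathionine beta-synthase, which routes homocysteine sulfur towards cysteine: 607.4 ± 47.6 in SHR and 876.1 ± 73.5 in WKY, -0.52 (SE 0.067, limma adjusted p = 8.8e-05). Cbs fell after dehydration as well, to 667.7 ± 66.8 from 895.3 ± 47.6 in controls, -0.42 (SE 0.085, limma adjusted p = 0.0454), the 1 of 56 that passed there. That call ended in 12 of 22 alternative fits, including those without control array 1, 2 or 4 (adjusted p = 0.111, 0.123 and 0.203) and without dehydrated array 1, 2 or 3 (adjusted p = 0.153, 0.159 and 0.0978). The strain call of Cbs ended only with the microglia (-0.47, adjusted p = 0.053) or fibroblast (-0.40, adjusted p = 0.225) covariate. Fasted pools were at 748.9 ± 74.5, between the other Sprague Dawley groups, and did not differ from controls by the test (-0.26, adjusted p = 0.5).

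Ngb, neuroglobin, rose in SHR to 332.3 ± 39.7 from 267.3 ± 15.2 (0.29, limma adjusted p = 0.0344), a call that ended in 14 of 23 alternative fits. These included the fits without SHR array 1, 2 or 4 (adjusted p = 0.0703, 0.0668 and 0.0886) and without WKY array 1, 3, 4 or 5 (adjusted p = 0.0706, 0.0884, 0.0523 and 0.077). In the comparisons of fasting with control and of dehydration with fasting 0 of 56 passed in limma, with 5 and 10 at an unadjusted p under 0.05. After dehydration against controls 40 of 56 were negative (71.4%, against 52.4% of all probe sets), with a median of -0.06. An unadjusted limma p under 0.05 was found there for 13 of 56 (23.2%, against 11.7% of all). The regulators themselves did not pass anywhere. Nfe2l2, the gene of Nrf2, gave -0.09 between strains, -0.13 after fasting and -0.16 after dehydration against controls (adjusted p = 0.686, 0.764 and 0.496). Keap1 gave -0.13, 0.05 and -0.07 in the same order. Cat, catalase, gave 0.11, 0.05 and -0.05, and Slc7a11, the cystine importer, 0.08, -0.07 and -0.15 (adjusted p = 0.478, 0.856 and 0.391).

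The differences of genes with and without the element core in their promoter windows are set side by side here as a description. After dehydration the median was -0.12 for the 16 tested genes with a match, of which 15 were negative, and -0.09 for the 34 without, of which 28 were negative. Between the strains the medians were -0.02 and 0.04, after fasting -0.02 and -0.04, and for dehydration against fasting -0.05 and -0.05. No difference between these groups of genes was tested. Of the 6 genes called in a comparison, Gstm5, Gpx2, Txndc5 and Gsta1 held a match, that of Gsta1 lying 30 bases after its start. Nqo1 and Gstt3 held none within these short windows.

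For 8 of the 64 genes a further probe set was on the array, and 6 such probe sets were tested in each comparison. None of them passed in any comparison. Their sign differed from that of the probe set used here for 4 of 6 between the strains. Glrx2, the mitochondrial glutaredoxin, gave -0.16 and 0.09, and Gclc, the catalytic subunit of glutamate-cysteine ligase, 0.02 and -0.24. Txnrd1, the cytosolic thioredoxin reductase, gave 0.01 and -0.21, and Txnl1 0.08 and -0.01. After dehydration the signs differed for Txnl1, for Glrx2 (-0.08 and 0.25) and for Gpx4 (-0.04 and 0.14). Set against fasting they differed for Txnl1 (0.08 and -0.13) and Txnrd1 (0.02 and -0.28), while Glrx2 gave -0.00 and 0.22, and after fasting for Txnl1 (0.07 and -0.07) and Glrx2 (-0.08 and 0.02). None of the 6 genes called in a comparison had a second probe set among those tested.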

How the data were processed

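Area postrema RNA of 23 pools of 5 male rats was hybridised to 1 Affymetrix array each. The authors deposited linear intensity values, summarised per probe set with GCOS 1.2, per the submitters' processing notes. Settings of that software were not given in the sources used here. The mean after trimming 2% at each end is 100 on every array, so the values were used as deposited. Array medians were 39.81 to 44.48, and the number of arrays limits the precision.

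Titles gave the groups, and the number of columns without a sample was 0. Of 31099 probe sets, 57 were array controls, 20832 had 1 gene symbol, 436 several and 9780 none in the platform annotation, which can be old. All 64 symbols matched a current symbol in the RefSeq gene table of GRCr8. Promoter windows are RefSeq's for GRCr8. No position is given for a probe set.

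Signals were analysed as log2(signal + 16), so differences at low signal are understated. Probe sets under the 40th percentile of mean log2 signal in a fit were dropped, as were the array controls. The 10 strain arrays were fitted alone, and the 13 Sprague Dawley arrays in 1 model with 3 contrasts. Tests were two-sided moderated tests in limma 3.58.1 under R 4.3.3 (eBayes with robust and trend options). They were Benjamini-Hochberg adjusted over all probe sets kept, with a threshold of 0.05. Fits were tested on simulated data.

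The genes, roles, marker and pathway lists and the motif were chosen with earlier results of these data known. Values by array are given for genes that passed and, where fewer than 3 passed, for the 3 with the smallest p. The brightest gene of each role is also named, as are pathway genes that passed, Nfe2l2, Keap1, Cat and Slc7a11. Other genes in the text were chosen after their values were seen. Markers of astrocytes, oligodendrocytes, endothelium, pericytes, ependyma, neurons and red blood cells were also read, and 0 of them passed in any of the 4 comparisons.

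Alternatives changed the scaling (quantile), the pseudocount (1 or 64), the filter (none, or the 60th percentile), the eBayes options, the arrays fitted (all 23 together, the pair of groups alone, controls reduced to arrays 3 and 4, or 1 array fewer) and the summary of a gene (mean of its probe sets). Others added a term: the replicate number as a block, the Gapdh 3′ to 5′ ratio, or the choroid plexus marker mean. The microglia and fibroblast marker covariates, used in the strain fit only, and the removal of 3 arrays with a choroid plexus mean above 7 were added after seeing the data. Same-numbered arrays did not deviate together (correlations of -0.17 to 0.27), so numbers were not taken to pair the arrays.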

Additional observations from a re-analysis of the deposited data

Results flagged for a closer look

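Dixon's test at the 95% level was applied to 65 groups of 4 or 5 arrays of the genes given by array, and 3 stood out, where chance gives about 1 in 20. Gstt3 was 182.2 on WKY array 3, below the other 4 WKY arrays at 200.9 to 205.0. Glrx3 was 817.0 on control array 3, above the other controls at 731.9 to 744.0. Gss was 119.0 on fasted array 2, above the other fasted arrays at 106.4 to 108.1.

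Gss was also singled out because all 5 fasted arrays lay above the mean of the controls and all 4 dehydrated arrays lay below it. The test of the difference between the treatments gave -0.38 on the log2 scale, with a limma adjusted p of 0.216, and did not pass.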

How the results depend on the processing

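Over the 17 named gene differences and 383 alternative values, 324 kept direction and side of the threshold, 59 kept direction but no longer passed, and 0 reversed. Differences that had not passed in the main fit could not lose a call, and they make up part of the 324. All 59 losses fell on differences that had passed, so the pooled count overstates how steady the calls were. By gene the losses between the strains ran from 1 of 23 fits (Gstt3) to 14 of 23 (Ngb). The comparison of fasting with control and that of dehydration with fasting had 0 called antioxidant genes in every alternative. Between the strains the count of 5 became 3 with the replicate block, 1 with the microglia covariate and 0 with the fibroblast and meninges covariate, and it ran from 4 to 7 when 1 array was left out. The block used arrays 2 to 5, since the first array of each strain has no number in its label, and it ended the calls of Gsta1 (adjusted p = 0.159) and Txndc5 (adjusted p = 0.0594). Gsta1 also missed the threshold with eBayes without trend and robust (adjusted p = 0.0846) and in 1 model of 23 arrays (adjusted p = 0.14). The single call after dehydration, Nqo1, became 0 with the replicate block (adjusted p = 0.147), no filter (0.082), eBayes without trend and robust (0.125), the Gapdh covariate (0.0844), the choroid plexus covariate (0.0852), the 2 groups fitted alone (0.0574), controls reduced to arrays 3 and 4 (0.227) and without the 3 arrays high in choroid plexus markers (0.102). Leaving out 1 array gave 0 to 1 calls. The fit without a filter tested more probe sets and the reduced fits had fewer arrays, but what ended the calls was not tested. With 4 or 5 pools a group the smallest called difference of an antioxidant gene was 0.24 on the log2 scale (Gsta1), and dim genes such as Gsr were not tested.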
